A study of Ovis aries with 16 samples.

Results

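The let-7 family of microRNAs (miRNAs) was followed through the liver and a thigh muscle of adult female sheep whose mothers had or had not received bisphenol A (BPA). Members were all rows of the deposited miRNA table with a name that starts with MIRLET7. These were 7 of the 105 miRNA rows, and of 4920 rows in the 4 tables of small and long non-coding RNAs. They were MIRLET7A, MIRLET7B, MIRLET7C, MIRLET7D, MIRLET7F, MIRLET7G and MIRLET7I, and all 7 passed the filter on low values in every fit.

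The 16 libraries came from 8 Suffolk females, 1 liver and 1 vastus lateralis library from each animal. Mothers of the 4 BPA animals (910, 918, 977 and 984) were injected under the skin each day with 0.5 mg/kg BPA in corn oil from day 30 to day 90 of gestation. Mothers of the 4 control animals (902, 908, 924 and 928) received corn oil alone over the same days. All 8 offspring were about 21 months old, had fasted for 48 hours and had their oestrus synchronised with prostaglandin before tissue was taken, so none of the groups was unfasted. The liver samples came from the tip of the left lobe. BPA is a plastics monomer that can bind oestrogen receptors, and the design asks whether exposure before birth leaves a mark on non-coding RNAs of adult metabolic tissues.

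The let-7 miRNAs are among the most conserved in animals. Mature members differ by only a few bases and share the seed, the stretch near the 5′ end that pairs with target mRNAs, so they can act on overlapping targets. They accumulate as tissues differentiate, and the RNA-binding proteins LIN28A and LIN28B hold their maturation back. The LIN28 and let-7 axis is known to affect insulin signalling and glucose uptake in liver and muscle, and classical targets are RAS genes, HMGA2 and MYC. Because members are so alike, and no source used here says how reads that match more than 1 of them were counted, the division of reads between the 7 rows is uncertain.

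Names and neighbours of the let-7 genes were read from RefSeq genes on ARS-UI_Ramb_v3.0. There, MIRLET7A and MIRLET7D are neighbours within 10 kb and both lie inside the span of ZNF169. MIRLET7C has MIR99A as a neighbour within 10 kb. MIRLET7F lies within the span of HUWE1 and MIRLET7G within that of WDR82, both protein-coding. MIRLET7B, MIRLET7C and MIRLET7I lie within the protein-coding entries LOC121819243, LOC121816219 and LOC121819183. No row of the deposited lncRNA table overlapped a let-7 gene.

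Whole reads could be recovered from the normalized values, and miRNA reads ran from 94393 to 240815 per library in control liver, 578150 to 1383538 in BPA liver, 471691 to 559705 in muscle of controls and 596919 to 1044886 in muscle of exposed animals. The member with the fewest reads in a library was MIRLET7D with 267, a counting error of 6.12%, and the most was 120337 for MIRLET7A, an error of 0.288%. These errors cover counting only, since the labels name no molecular identifiers. Replicates were single animals, and in bulk tissue fewer cells of a type and less RNA per cell cannot be told apart.

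The liver libraries differed by group in more than depth. There were 12.4 to 41.2 snRNA reads per 100 miRNA reads in control liver and 0.137 to 0.279 in BPA liver, against 0.18 to 0.756 in muscle. Of the tissue markers, the liver miRNAs MIR148A and MIR194 (2 of the 4 on their list that were measured) summed to 40787 to 66109 normalized counts in liver and 1311 to 2028 in muscle. MIR133, the 1 of 7 striated muscle markers in the table, was at 244661 to 373488 in muscle and 115 to 717 in liver, so the tissue labels matched the markers. The epithelial markers (3 of 5 measured) summed to 482 to 1367 in control liver and 1504 to 1965 in BPA liver. These groups did not overlap, as in 16.7% of single miRNAs tested in liver. The blood cell marker MIR150 (1 of 5) was at 199 to 549 in liver and 1368 to 2760 in muscle, the endothelial marker MIR221 (1 of 3) at 345 to 730 and 281 to 467, and the fibroblast and smooth muscle markers (2 of 4) at 26709 to 52968 and 7999 to 28471. The part of these markers, and of snRNA content, in any let-7 value was not tested.

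The family made up a large share of all miRNA reads. In control liver it took 23.8%, 24.8%, 24.6% and 24.5% of miRNA reads in animals 902, 908, 924 and 928 in that order, values close to each other. In BPA liver the shares were 29.9%, 27.6%, 22.4% and 19.4% in animals 910, 918, 977 and 984, so the exposed animals lay on both sides of all 4 controls. Control muscle held 16.8%, 18.2%, 17.5% and 17.6%, and BPA muscle 19.7%, 14.9%, 16.4% and 26.7% in the same animal order, with 984 far above the other exposed animals.

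In muscle 1 other miRNA took a large part of the reads. MIR133, a miRNA typical of striated muscle, took 43.6% to 57.4% of muscle miRNA reads and 0.033% to 0.217% of those in liver. With MIR133 reads left out, let-7 made up 19.4% to 29.9% of the remaining reads in liver and 34.9% to 47.4% in muscle, and the tissues no longer overlapped. Leaving out so abundant a muscle miRNA had to raise the muscle share, and no liver miRNA was left out to match. The direction of a tissue difference in let-7 therefore depended on the denominator, and neither denominator decides it.

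Normalized counts by member separated high, middle and low members in liver. Since 1 read covers a whole mature miRNA, levels were compared as normalized counts, and dividing by gene model length (80 to 87 nt) changed 1 pair of neighbouring places, MIRLET7F and MIRLET7A in control liver. In control liver MIRLET7G was highest at 24927 ± 3110 (SD, n = 4), ahead of MIRLET7F at 19007 ± 2963 and MIRLET7A at 18793 ± 3847, whose gap was within their spread. MIRLET7B (9116 ± 1268) and MIRLET7I (8420 ± 1917) formed the middle and did not differ beyond their spread. MIRLET7C stood at 4551 ± 591, and MIRLET7D was lowest at 1134 ± 135. Among all 105 miRNAs these members ranked from place 4 (MIRLET7G) to place 32 (MIRLET7D).

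In BPA liver the top of the order was no longer separated. MIRLET7A (21782 ± 7933), MIRLET7G (21231 ± 3122) and MIRLET7F (20708 ± 1882) lay within their spread, followed by MIRLET7I (8179 ± 2195) and MIRLET7B (7963 ± 1872), again within their spread, then MIRLET7C (5262 ± 2254) and MIRLET7D (1414 ± 685; SD, n = 4 for each). The SD of MIRLET7A, MIRLET7C and MIRLET7D was larger in exposed than in control liver, a difference in spread that was not tested.

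Muscle had another order, led by MIRLET7A. In control muscle MIRLET7A was at 29074 ± 2659, above MIRLET7G at 24848 ± 1888, and MIRLET7B at 19033 ± 2210 stood level with MIRLET7F at 17924 ± 1659. MIRLET7I (8685 ± 781) and MIRLET7C (8091 ± 912) did not differ beyond their spread, and MIRLET7D was lowest at 2905 ± 378 (SD, n = 4 for each). In BPA muscle MIRLET7A (30243 ± 10791), MIRLET7G (23557 ± 3553), MIRLET7B (20422 ± 5521) and MIRLET7F (16079 ± 1100) each lay within the spread of the next between animals, as did MIRLET7C (9265 ± 3128) and MIRLET7I (9185 ± 1984), with MIRLET7D last at 3332 ± 1427. Within libraries the order was steadier, since MIRLET7A was above MIRLET7G and MIRLET7G above MIRLET7B in 4 of 4 exposed muscles (log2 differences of 0.31 ± 0.26 and 0.23 ± 0.20, SD).

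**Figure D1:**
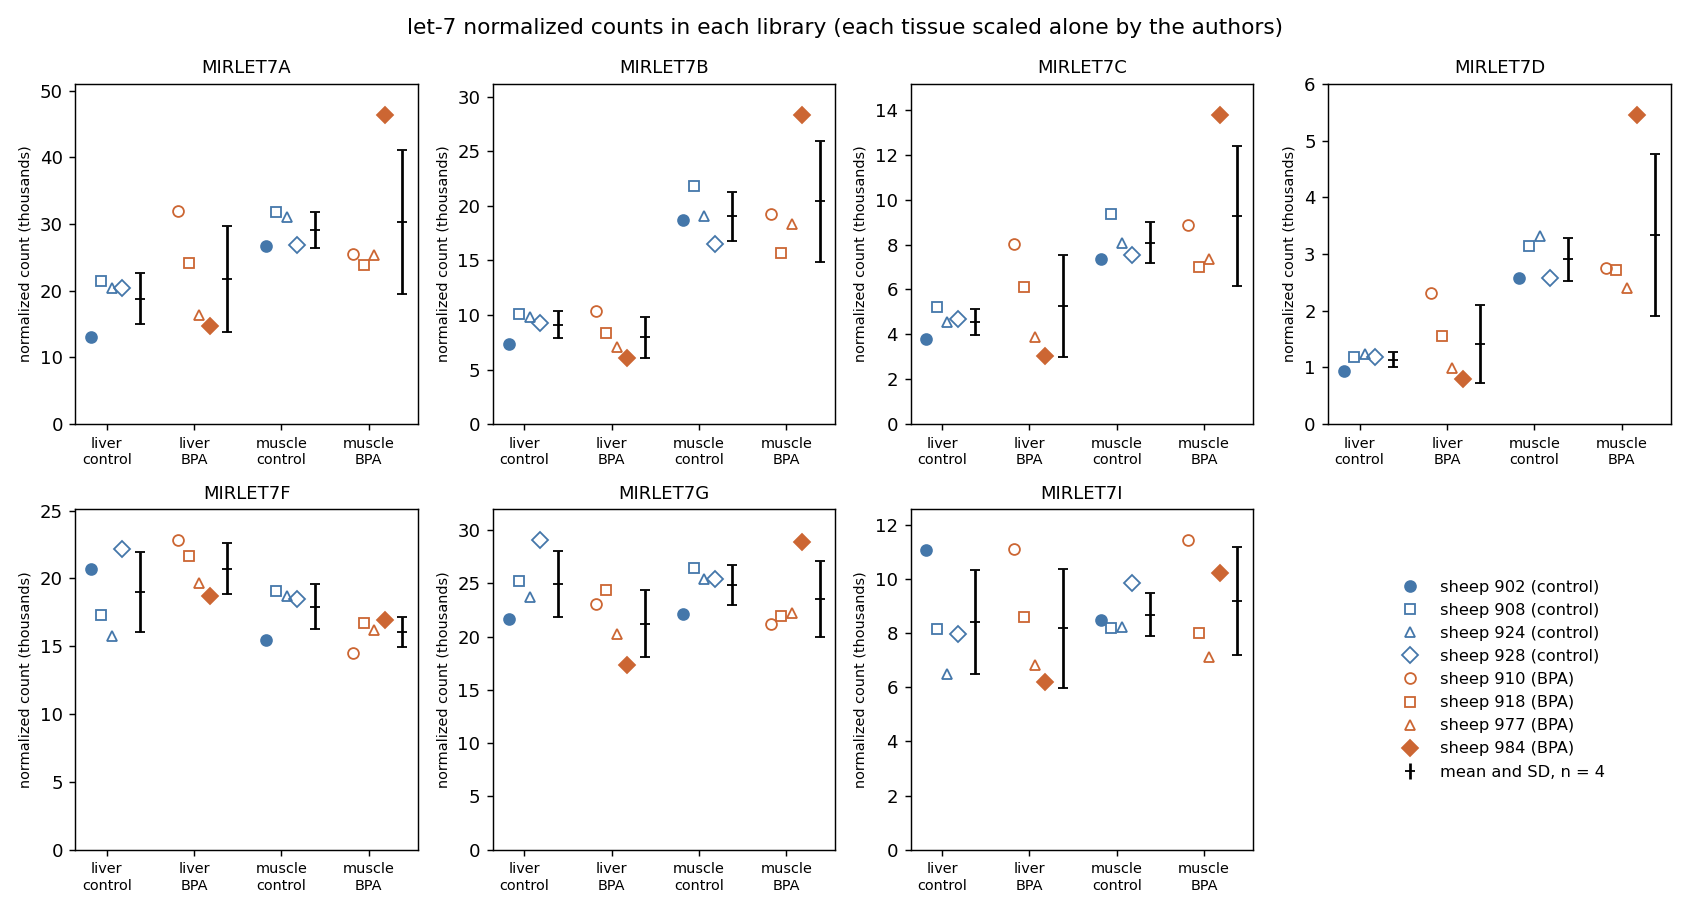
Deposited normalized counts (y axis) of the 7 let-7 rows in each of the 16 libraries, by tissue and treatment (x axis). Each point is 1 animal, filled for animals 902 and 984, and black bars give the group mean and SD (n = 4). Each tissue was taken as scaled alone, so levels are not compared between tissues here. In liver the BPA and control points overlap for every member, and in muscle BPA animal 984 lies above the rest for MIRLET7A, MIRLET7B, MIRLET7C, MIRLET7D and MIRLET7G.

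None of the 7 members was called as changed with prenatal BPA in liver on the scale of the miRNA table. By limma on log2(normalized count + 1), 0 of 7 passed a Benjamini-Hochberg adjusted p of 0.05, none had an unadjusted p under that value, and in all 7 the exposed and control animals overlapped. Of all 78 miRNAs tested, 9 passed, or 11.5% (6.41% higher and 5.13% lower), and 16.7% had groups that did not overlap. The median log2 fold change was 0.12 over let-7 and 0.05 over all miRNAs, and the median absolute value was 0.17 against 0.30. With edgeR and DESeq2 on the recovered reads 0 of 7 passed as well, against 14.7% and 9.71% of all miRNAs.

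MIRLET7A and MIRLET7D, the neighbouring pair, had exposed livers both above and below most controls. MIRLET7A stood at 13069, 21382, 20393 and 20331 normalized counts in control animals 902, 908, 924 and 928 and at 31934, 24164, 16385 and 14644 in BPA animals 910, 918, 977 and 984. MIRLET7D stood at 934, 1183, 1235 and 1182 in controls and at 2317, 1561, 983 and 794 in exposed animals. For both, 910 and 918 were above every control, and 977 was below 3 of the 4. Animal 984 was below 3 of the 4 controls for MIRLET7A and below all 4 for MIRLET7D. The log2 fold changes were 0.17 ± 0.25 for MIRLET7A and 0.20 ± 0.31 for MIRLET7D (SE, limma adjusted p = 0.7626 and 0.7777), with 95% intervals of -0.37 to 0.71 and -0.47 to 0.87.

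MIRLET7C and MIRLET7B had the same order of exposed animals. MIRLET7C, the neighbour of MIR99A, was at 3778, 5205, 4526 and 4696 in control liver and at 8020, 6126, 3859 and 3044 in BPA liver, again with 910 and 918 above all controls. MIRLET7B was at 7293, 10101, 9835 and 9234 in controls and at 10397, 8349, 7032 and 6074 in exposed animals, with only 910 above the controls. Their log2 fold changes were 0.12 ± 0.28 and -0.21 ± 0.20 (SE, limma adjusted p = 0.9028 and 0.5744), and the 95% intervals were -0.49 to 0.72 and -0.65 to 0.23.

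MIRLET7F and MIRLET7I also had this order of exposed animals, and in MIRLET7G 918 was above 910. MIRLET7G was at 21660, 25251, 23760 and 29035 in control liver and at 23035, 24333, 20250 and 17307 in BPA liver, a log2 fold change of -0.24 ± 0.16 (SE, limma adjusted p = 0.4096; 95% interval -0.59 to 0.12). MIRLET7F was at 20733, 17332, 15777 and 22188 in controls and at 22814, 21685, 19654 and 18678 in exposed animals, a difference of 0.13 ± 0.16 (adjusted p = 0.6946; 95% interval -0.22 to 0.48). MIRLET7I was at 11075, 8137, 6496 and 7973 in controls and at 11090, 8613, 6814 and 6198 in exposed animals, a difference of -0.05 ± 0.23 (adjusted p = 0.9080; 95% interval -0.54 to 0.44). For MIRLET7I, control 902 and BPA 910 were the 2 high livers and nearly equal. At this number of animals the intervals still allow changes of either sign.

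Library codes in the labels moved with some of these values. The 2 liver libraries with codes 95 and 96, from 910 and 918, held 29.9% and 27.6% let-7, those with codes up to 79 held 19.4% to 23.8%, and those with higher codes than 97, all controls, held 24.5% to 24.8%. The only muscle library in the 95 to 97 range was that of 984, at 26.7% against 14.9% to 19.7% in the other 7. In muscle all controls had lower codes than all exposed animals, so exposure and the order of codes cannot be told apart in that tissue. With code range as a covariate, which leaves 1 control (902) and 2 exposed livers in a shared range, MIRLET7I passed as lower (log2 fold change -0.77, limma adjusted p = 0.0428; 0.0019 to 0.9951 over all alternatives) and the other 6 members did not pass, against 16.7% of all miRNAs under that covariate. Control 902, on which this contrast rests, was the highest control for MIRLET7I, at 11075 against 6496 to 8137.

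Scaling decided how the liver result read. A setting chosen after the data were seen took 1 size factor per liver library over all 4 tables. With it all 7 members passed as higher in BPA liver by 1.23 to 1.67 on the log2 scale, together with 82.9% of all miRNAs. When such size factors were taken over all 16 libraries instead, let-7 differed by 1.39 to 1.83 between BPA and control liver. The median of the 75 miRNAs tested between tissues then lay 1.62 above its value after rescaling by the miRNA table. Relative to that median let-7 lay between -0.27 and 0.16. On the miRNA table's own scale the same span was -0.29 to 0.15. These spans were bound to be close, since a scaling shifts all miRNAs of a library almost alike.

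In muscle, too, no member was called as changed with BPA. By limma 0 of 7 passed, none had an unadjusted p under 0.05, and all 7 members overlapped between the groups. Of all 70 miRNAs tested, 0% passed by limma, edgeR or DESeq2, 3 had an unadjusted limma p under 0.05, and 7.14% had groups that did not overlap. Log2 fold changes of the 7 ran from -0.15 ± 0.12 for MIRLET7F to 0.15 ± 0.19 for MIRLET7C (SE, limma adjusted p of 0.8407 to 0.9866 over the 7). The median was 0.06 for let-7 and 0.01 for all miRNAs.

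Most of the muscle spread came from 1 exposed animal. MIRLET7A stood at 26671, 31716, 31007 and 26900 in control muscle and at 25460, 23820, 25301 and 46393 in BPA animals 910, 918, 977 and 984, so 3 exposed animals were below all 4 controls and 984 was above them. MIRLET7D was at 2585, 3142, 3311 and 2580 in controls and at 2750, 2714, 2405 and 5460 in exposed animals. MIRLET7B was at 18715, 21858, 19092 and 16469 in controls and at 19286, 15669, 18356 and 28377 in exposed animals, and MIRLET7C at 7351, 9377, 8086 and 7551 and at 8893, 7022, 7350 and 13796. In each of these, 984 was the highest of the 8 muscles.

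The remaining members were less affected by that animal. MIRLET7G was at 22104, 26421, 25440 and 25428 in control muscle and at 21153, 21978, 22257 and 28840 in BPA muscle, with 984 again on top. MIRLET7F was at 15463, 19062, 18713 and 18460 in controls and at 14504, 16690, 16170 and 16954 in exposed animals, where 984 did not stand apart. MIRLET7I was at 8469, 8204, 8226 and 9843 in controls and at 11425, 7996, 7106 and 10211 in exposed animals, with 910 highest. Without 984, log2 fold changes were -0.22 for MIRLET7A, -0.14 for MIRLET7D, -0.10 for MIRLET7B and -0.06 for MIRLET7C, each below 0 where the value with all animals was above it, and still 0 of 7 passed. The muscle library of 984 also held the most snRNA reads among muscles, 0.756 per 100 miRNA reads against at most 0.336, and the lowest MIR133 share.

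**Figure D2:**
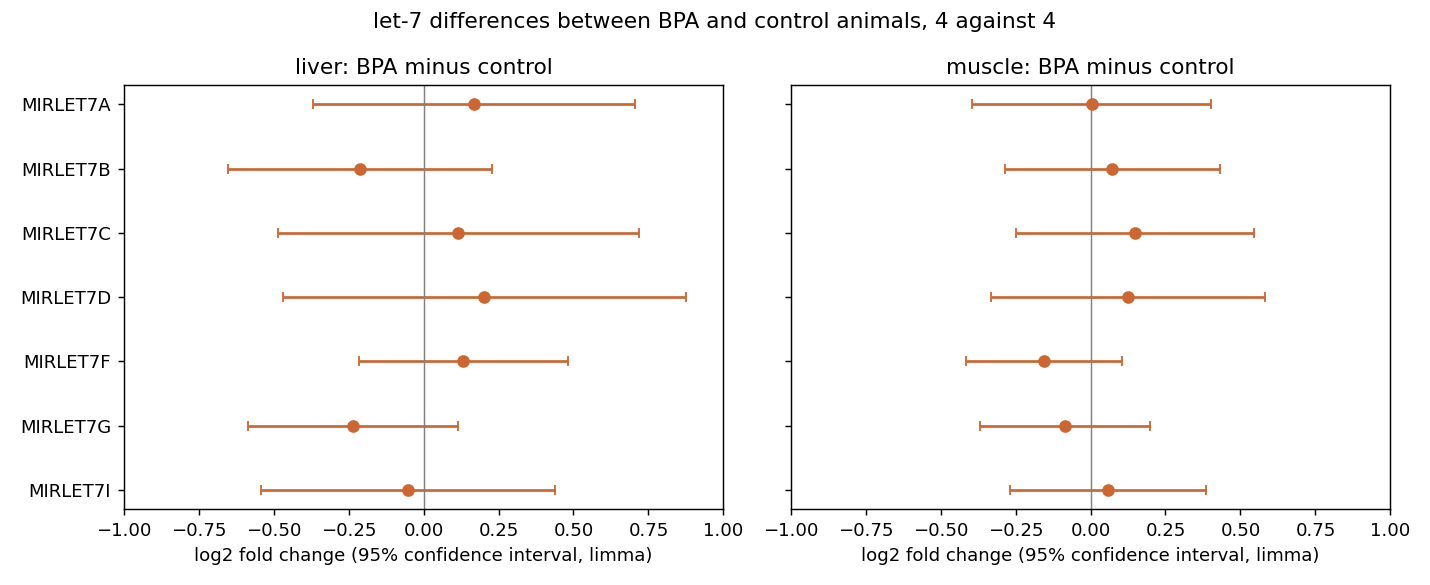
Log2 fold change of each let-7 member, BPA minus control, in liver (left) and muscle (right), with the 95% confidence interval from limma (n = 4 against 4). All intervals span 0, and they are wider in liver than in muscle for every member.

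The BPA difference itself was not shown to differ between tissues for any member. Interaction estimates, muscle minus liver, ran from -0.24 for MIRLET7F to 0.33 for MIRLET7B on the log2 scale (limma adjusted p of 0.4828 to 0.9624 over the 7), and 0 of 7 passed, against 2 of 75 miRNAs, or 2.67% (1.33% in each direction). With animal as a block 0 of 7 and 0 of 75 passed. Under 1 size factor over the 4 tables all 7 passed as lower, with 93.3% of all miRNAs.

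Between tissues every member was higher in muscle once the libraries were put on 1 scale by size factors, but 4 of the 7 had the opposite sign as a share of all miRNA reads. The deposited values were taken as scaled for each tissue alone, which the sources used here do not state. Size factors over all 16 libraries lowered the liver values and raised the muscle values by a mean of 0.29 on the log2 scale. On that scale 7 of 7 members passed as higher in muscle, and 76% of the 75 miRNAs tested passed in either direction, 36% as higher and 40% as lower. The median log2 difference was 1.15 for let-7 and -0.14 for all miRNAs. In 6 of 7 members no liver library reached a muscle library, as in 54.7% of all miRNAs, and MIRLET7F overlapped.

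MIRLET7D and MIRLET7B differed most between tissues. On the common scale MIRLET7D was at 659 to 1721 in the 8 livers and 2899 to 6432 in the 8 muscles, a log2 difference of 1.90 ± 0.20 (SE, limma adjusted p = 3.52e-08). MIRLET7B was at 5039.5 to 8447 in liver and 18504 to 33428 in muscle, a difference of 1.79 ± 0.13 (adjusted p = 3.97e-10). MIRLET7C differed by 1.43 ± 0.18 (adjusted p = 4.19e-07) and MIRLET7A by 1.15 ± 0.16 (adjusted p = 3.04e-06). On this scale these 4 members were 2.23-fold (MIRLET7A) to 3.74-fold (MIRLET7D) higher in muscle.

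The other 3 members differed less, and their sign was not the same on every scale. MIRLET7I was higher in muscle by 0.71 ± 0.14 on the log2 scale (SE, limma adjusted p = 1.04e-04) and MIRLET7G by 0.66 ± 0.10 (adjusted p = 6.34e-06). MIRLET7F was at 12664 to 18930 in liver and 18207 to 23908 in muscle, a difference of 0.37 ± 0.09 (adjusted p = 0.0017). In control animals alone all 7 passed, with differences of 0.49 to 1.92, against 72% of all miRNAs (34.7% higher and 37.3% lower). In exposed animals 6 of 7 passed, against 66.7% (33.3% in each direction), and MIRLET7F missed at 0.24 ± 0.13 (limma adjusted p = 0.1090). Tissues did not overlap for 7 of 7 members in controls, against 72%, and for 6 of 7 in exposed animals, against 61.3%. With animal as a block the counts were again 7, 7 and 6, against 73.3%, 69.3% and 61.3% of all miRNAs.

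The sign of these tissue differences depended on the scale for some members. As a share of all miRNA reads, which counts the MIR133 reads of muscle in the total, MIRLET7F was at -1.01 (limma adjusted p = 1.56e-09), MIRLET7G at -0.72 (adjusted p = 9.22e-07) and MIRLET7I at -0.67 (adjusted p = 5.64e-04), all lower in muscle, and MIRLET7A was at -0.23 (adjusted p = 0.2058). MIRLET7B and MIRLET7D kept their sign at 0.41 and 0.52 and still passed, while MIRLET7C was at 0.05 (adjusted p = 0.7898). On the scale as deposited MIRLET7F was lower in muscle at -0.22 (adjusted p = 0.0383). Of all miRNAs, 85.9% passed as a share of reads and 82.9% on the deposited scale (74.1% and 68.4% in controls alone). These scales moved the median of all miRNAs by -1.38 and by -0.58. Against that median, all 7 members lay above it under each of the 4 scalings, by 0.50 to 2.05. A scaling shifts all miRNAs of a library almost alike, so the 4 scalings do not count as separate tests of this.

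**Figure D3:**
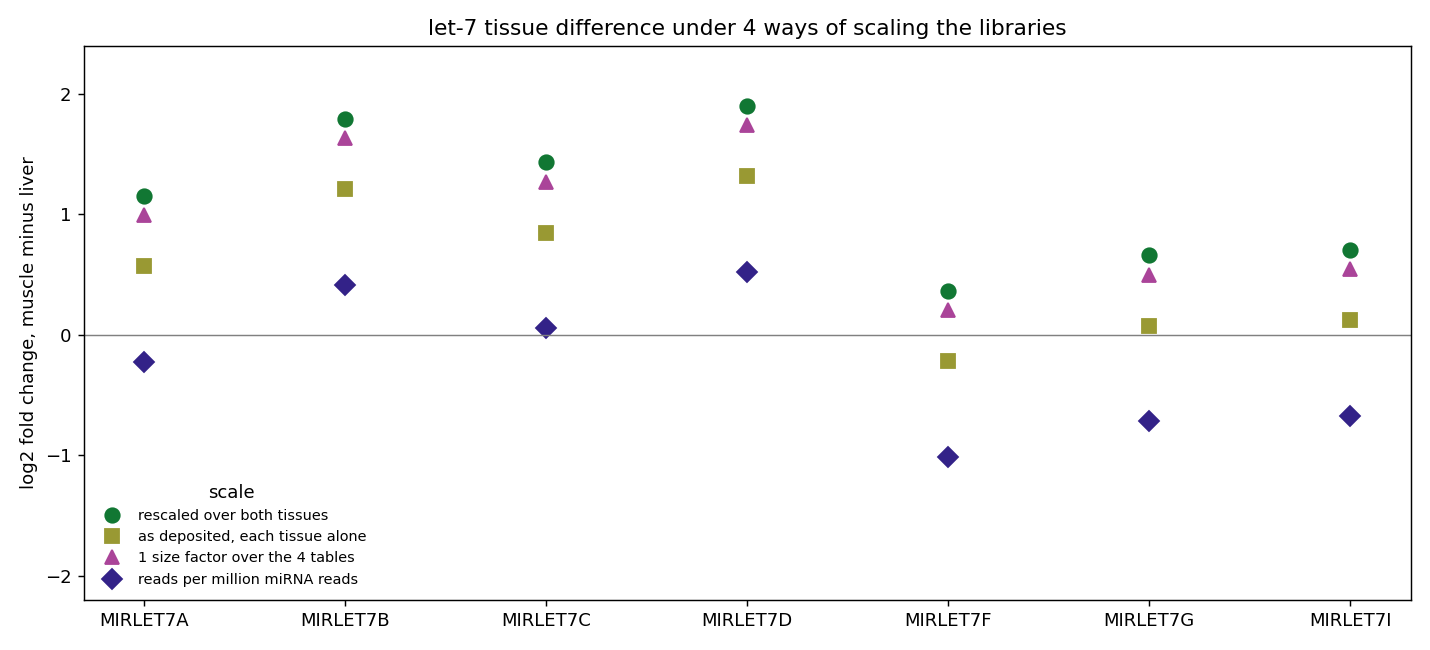
Log2 difference, muscle minus liver, of each let-7 member (x axis) under 4 ways of scaling the 16 libraries (symbols). The distance between members is nearly the same under each scaling while the zero line moves: MIRLET7B and MIRLET7D are above 0 under all 4, and MIRLET7F runs from 0.37 to -1.01.

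Shares within the family do not depend on any size factor, and those of some members differed between tissues. MIRLET7B made up 9.90% ± 1.15 (SD, n = 8) of let-7 reads in liver and 17.7% ± 1.32 in muscle, with ranges of 8.80% to 11.99% and 15.4% to 18.9%. MIRLET7D made up 1.44% ± 0.314 (1.19% to 2.11%) and 2.76% ± 0.398 (2.41% to 3.64%). MIRLET7F went the other way, from 23.3% ± 3.31 (19.2% to 28.0%) in liver to 15.5% ± 2.01 (11.3% to 17.4%) in muscle. These 3 of 7 members did not overlap between tissues, and in all 8 animals the muscle and the liver differed in the stated direction. By reads relative to summed let-7 reads, 55.3% of all miRNAs did not overlap, a larger part than among the members. The measure is not quite alike, since the summed reads contain the members but not the other miRNAs.

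The other members differed in share by smaller amounts and with overlap. MIRLET7C was at 5.58% ± 0.932 of let-7 reads in liver and 7.72% ± 0.78 in muscle, higher in the muscle of 8 of 8 animals, and MIRLET7G was at 26.9% ± 2.90 and 21.9% ± 1.42, higher in the muscle of 0 of 8. MIRLET7A was at 23.2% ± 3.65 in liver and 26.4% ± 2.04 in muscle, higher in muscle in 6 of 8 animals, and MIRLET7I at 9.65% ± 1.91 and 8.12% ± 1.45, higher in muscle in 2 of 8. In control animals alone 6 of 7 members did not overlap between tissues, against 80.3% of all miRNAs, with the same limit on the measure. In exposed animals 4 of 7 did not, against 69.3%.

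By treatment, shares within the family separated in 1 member of liver only. MIRLET7G made up 27.6%, 28.5%, 29.0% and 30.7% of let-7 reads in control livers 902, 908, 924 and 928 and 21.0%, 25.7%, 27.0% and 25.9% in BPA livers 910, 918, 977 and 984, means of 28.9% ± 1.30 and 24.9% ± 2.66 (SD, n = 4). The groups did not overlap, but the nearest libraries, control 902 and BPA 977, were close. This was 1 of 7 members, against 15.4% of all miRNAs by reads relative to summed let-7 reads, with the same limit on the measure. In muscle it was 0 of 7, against 1.43%.

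**Figure D4:**
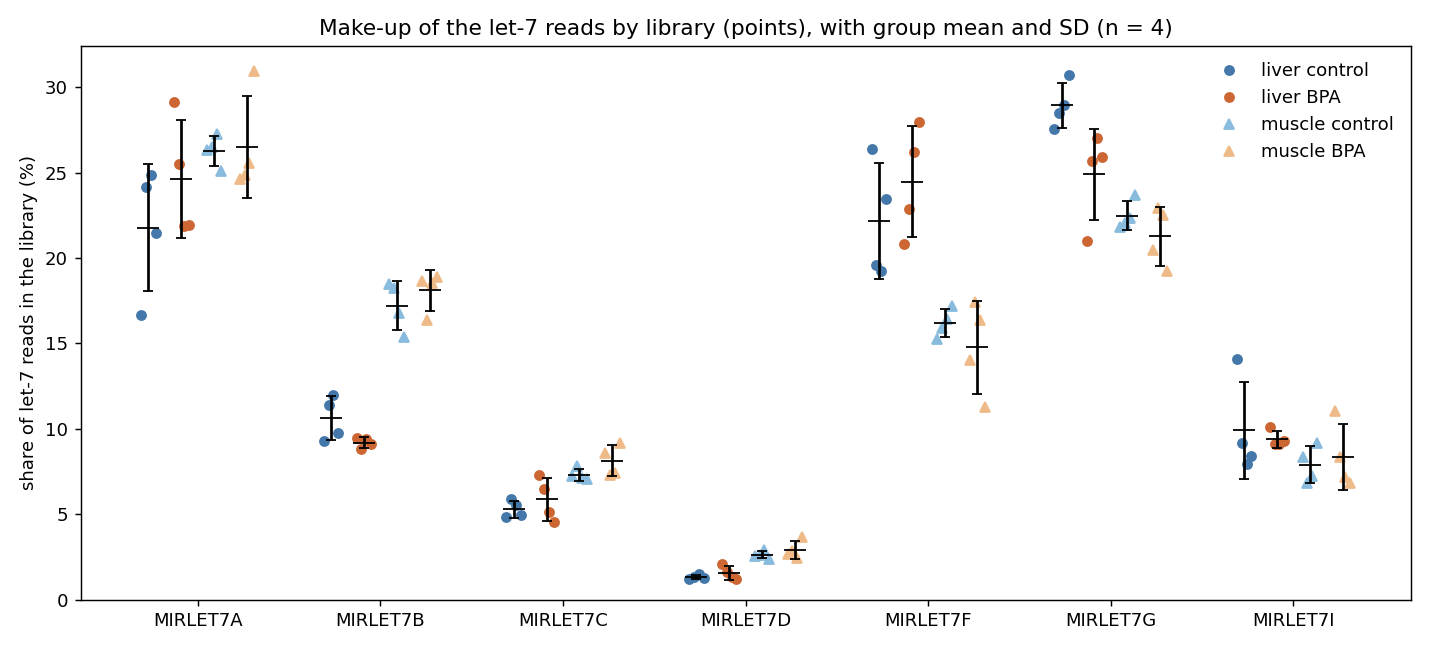
Share of each member in the let-7 reads of a library (percent, y axis) for the 7 members (x axis), with circles for liver and triangles for muscle; bars are the group mean and SD (n = 4). MIRLET7B and MIRLET7D shares are higher in every muscle than in any liver, and MIRLET7F shares are lower.

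Ratios between members restated this on a per-library basis. The MIRLET7A to MIRLET7D ratio, for the neighbouring pair, was 16.2 in liver (geometric mean, range 13.8 to 18.4) and 9.63 in muscle (8.50 to 10.5). The MIRLET7B to MIRLET7F ratio was 0.426 in liver (0.325 to 0.623) and 1.15 in muscle (0.892 to 1.67). MIRLET7C against its neighbour MIR99A gave ratios of 0.109 to 0.250 in liver and 0.283 to 0.644 in muscle. None of these 3 ratios overlapped between tissues, and neither did MIRLET7C to MIRLET7D, MIRLET7A to MIRLET7F or MIRLET7B to MIRLET7G. The MIRLET7F to MIRLET7G ratio did overlap, at 0.664 to 1.08 in liver and 0.588 to 0.759 in muscle. Only these chosen pairs were computed, and the share of all miRNA pairs with ratios that do not overlap was not. By reads relative to summed let-7 reads, 55.3% of single miRNAs did not overlap, so the ratios are descriptions only.

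Some members moved together from animal to animal more closely than others. Across the 8 livers, Pearson's r of log2 values was 0.98 between MIRLET7C and MIRLET7D, 0.95 between MIRLET7A and MIRLET7C, and 0.95 between MIRLET7A and MIRLET7D. Across the 8 muscles it was 0.96 between MIRLET7A and MIRLET7D, 0.95 between MIRLET7B and MIRLET7C, and 0.93 between MIRLET7C and MIRLET7D. Other pairs were lower. MIRLET7F had r of 0.28 to MIRLET7A and -0.03 to MIRLET7B in liver, and of 0.33 and 0.07 in muscle, but 0.64 to MIRLET7I in liver and 0.72 to MIRLET7G in muscle. MIRLET7I had r of 0.31 to MIRLET7A in liver and 0.29 in muscle. These are descriptions over 8 libraries of 2 treatments that share a size factor per library, and reads of such similar RNAs can be divided between rows in the same way throughout.

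MIRLET7F and MIRLET7G had the smallest spread of the 7 within groups in both tissues. The residual SD within groups, on the log2 scale, was 0.19 for MIRLET7F and 0.20 for MIRLET7G in liver, places 5 and 8 from the lowest of 78 miRNAs, where the median was 0.38. MIRLET7D and MIRLET7C had 0.51 and 0.47. In muscle MIRLET7F had 0.12 and MIRLET7G 0.17, places 6 and 12 of 70 with a median of 0.30, and MIRLET7D had 0.40.

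Animal 984 lay at opposite ends in its 2 tissues. Its liver was the lowest of the 8 for 5 of 7 members and its muscle was the highest of the 8 for 5 of 7. Relative to the mean of BPA animals on the log2 scale, MIRLET7D was at -0.71 in its liver and 0.80 in its muscle, MIRLET7C at -0.69 and 0.63, and MIRLET7A at -0.50 and 0.68. MIRLET7F, by contrast, was at -0.14 and 0.08. The liver of 910 was the highest of the 8 for 6 of 7 members, at 0.84 for MIRLET7D, but its muscle was at -0.19 for that member. Over 70 miRNAs tested in both tissues, the liver and muscle deviations of 984 from the group means correlated at -0.73. This was the lowest correlation of the 8 animals, so the opposite ends of 984 were not particular to let-7.

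**Figure D5:**
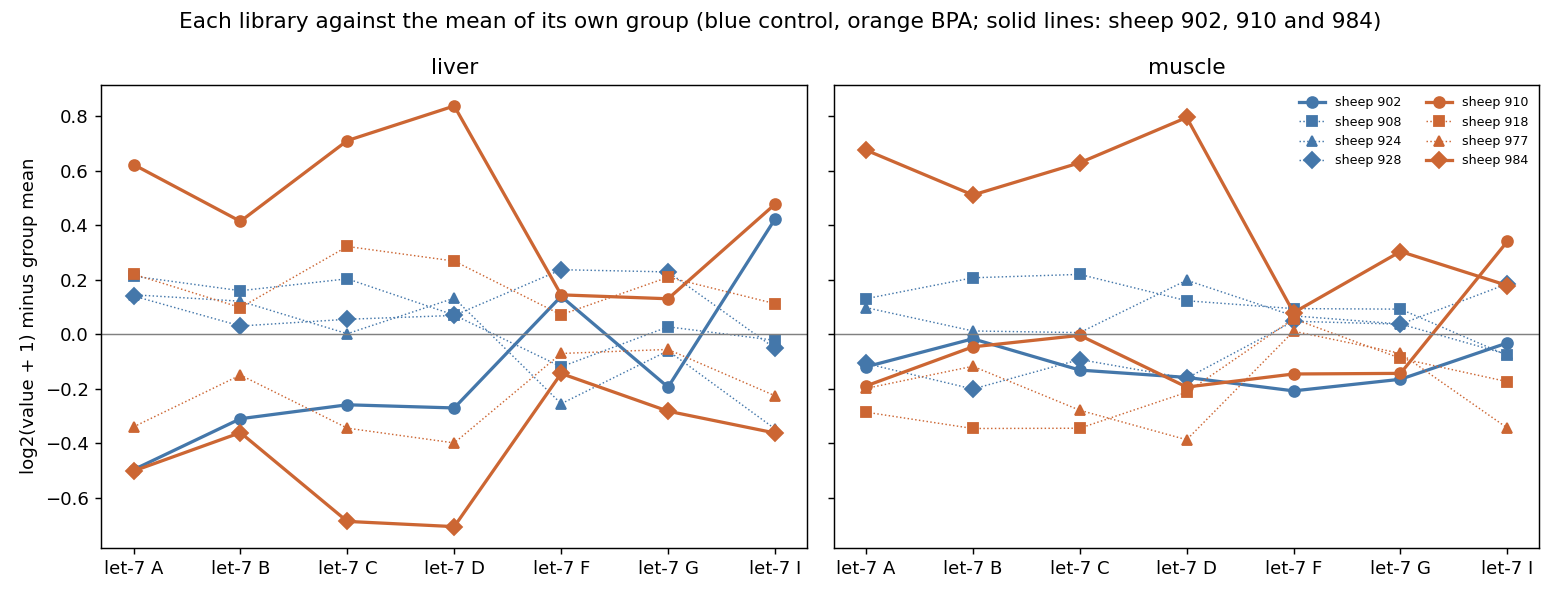
Log2(normalized count + 1) of each library minus the mean of its own group (y axis) for the 7 let-7 members (x axis), in liver (left) and muscle (right); each line is 1 animal, with 902, 910 and 984 drawn solid. Animal 984 reaches -0.71 in liver and 0.80 in muscle for MIRLET7D, and at MIRLET7F the lines of both tissues lie close together.

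Of 9 names searched, let-7 seed relatives and members of the miR-10, miR-99/100 and miR-125 families, 4 were rows of the table. These were MIR99A, MIR125B, MIR10A and MIR10B, of which only MIR99A had a let-7 neighbour in the gene table used here. In BPA liver 1 of the 4 was higher and 3 did not pass, against 6.41% of all miRNAs higher and 11.5% in either direction. MIR125B, which is encoded beside let-7 genes in many animals, was at 2116, 4451, 4485 and 3885 in control liver and at 11927, 10611, 6934 and 4716 in BPA liver, groups that did not overlap. Its log2 fold change was 1.16 ± 0.32 (SE, limma adjusted p = 0.0361), with 910 and 918 highest as for MIRLET7C. It did not pass without control 902 or without BPA 910, 918 or 977 (adjusted p of 0.0578 to 0.1361; 2.68e-05 to 0.1361 over all alternatives), while its sign did not change under any alternative. MIR10A was at 0.71 ± 0.30 (adjusted p = 0.1582), MIR99A at -0.28 ± 0.15 (adjusted p = 0.2632) and MIR10B at -0.22 ± 0.63 (adjusted p = 0.9069).

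In muscle 0 of the 4 passed for BPA, against 0% of all miRNAs. MIR125B was at 12162, 13311, 12822 and 11270 in control muscle and at 15366, 14633, 13652 and 19328 in BPA muscle. These groups did not overlap, as in 7.14% of all miRNAs, at a log2 fold change of 0.34 ± 0.13 (SE, limma unadjusted p = 0.0235, adjusted p = 0.7060). The interaction for MIR125B was -0.79 (adjusted p = 0.2850) and passed only without animal 984 (-1.11, adjusted p = 0.0432) or with 1 size factor over the 4 tables (-2.80). Between tissues 3 of the 4 were higher in muscle on the common scale, of which MIR10A was lower as a share of all miRNA reads, against 36% of all miRNAs higher and 76% in either direction. These were MIR10B, encoded within a HOX gene cluster, at 5.03 ± 0.40, MIR125B at 1.96 ± 0.18 and MIR10A at 0.63 ± 0.18 (SE, limma adjusted p = 7.54e-10, 8.02e-09 and 0.0037). MIR99A, the neighbour of MIRLET7C, was at 0.16 ± 0.10 (adjusted p = 0.1523), while MIRLET7C itself was at 1.43 ± 0.18. As a share of all miRNA reads MIR10A was at -0.74 and MIR99A at -1.22, while MIR10B and MIR125B stayed higher in muscle.

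Apart from MIR106B, which was named in both, the miRNAs whose profile was most like the summed let-7 values differed by tissue. Likeness was the root mean square difference of log2 values, each centred on its own mean, over the 8 libraries of a tissue. In liver the closest outside the family were MIR493 at 0.11, MIR26A at 0.12 and MIR106B at 0.15. MIR493 and MIR26A were closer than any member, which ran from 0.15 (MIRLET7B) to 0.27 (MIRLET7D). In muscle the closest outside the family were MIR23B, MIR106B and MIR25, at 0.11 each. There the members ran from 0.09 (MIRLET7G) to 0.23 (MIRLET7I).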

How the data were processed

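Small RNA was measured in 16 sheep libraries (8 livers and 8 vastus lateralis muscles), after Trizol and RNeasy extraction and NEBNext small RNA preparation per the labels' protocols. Per the submitters' processing notes the tools were featureCounts 1.6.1, STAR 2.6.0c and cutadapt 3.2. What each did, the build, the annotation and how values were normalized are details not given in the sources used here. Deposited by the authors were normalized counts, a signal that is proportional to reads within a library, in 4 tables (miRNA, snoRNA, snRNA and lncRNA). Dividing by the value of 1 read gave whole reads for 100% of the values in each table (tolerance 0.001), and depth is stated from these reads. Depth ran from 94393 to 1383538 miRNA reads per library.

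BPA was tested within each tissue with limma 3.58.1 (R 4.3.3, mean-variance trend, two-sided) on log2(deposited value + 1), for miRNAs with a mean of at least 5, with Benjamini-Hochberg adjustment over the whole miRNA table and a threshold of 0.05. A fold change on this scale understates changes of low miRNAs. Tissues and the interaction were tested in 1 fit of 4 groups after median-of-ratios rescaling of all 16 libraries. Shares of let-7 reads, orders and ratios are descriptions. Named were all MIRLET7 rows, all related or neighbouring miRNAs in the table, called partners (of MIR98, MIR202, MIR99A, MIR99B, MIR100, MIR125A, MIR125B, MIR10A and MIR10B) and per tissue the 3 miRNAs most like the let-7 sum with a mean of at least 10. Members and lists were chosen with earlier results of these data known. Partners without a row here are not analysed here.

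Alternatives were pseudocounts of 5 and 0.5, no filter, a mean of at least 50, edgeR 4.0.16 and DESeq2 1.42.0 on the recovered reads, values as a share of all miRNA reads, leaving out each library or animal, an animal block, the deposited scale, library code range as a covariate, and, chosen after seeing the data, 1 size factor over the 4 tables. Liver and muscle of the same number come from the same animal, which pairs them, but their deviations from the group means correlated from -0.73 to 0.44 over the 8 animals. The smallest chi-square per degree of freedom between replicates was 18.2, so all replicates differed by more than sampling noise. The script was tested on simulated data.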

Additional observations from a re-analysis of the deposited data

Results flagged for a closer look

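A library was singled out where its gap to the nearest of the other 3 in its group exceeded Dixon's 95% critical value. Of 64 groups tested 9 did so, and chance gives about 1 in 20 where groups are independent. They were not independent here, since members, their shares and their sums came from the same libraries, so no excess over chance can be read. Several of the 9 belonged to the muscle of BPA animal 984. In that library MIRLET7A stood at 46393 normalized counts against 23820 to 25460 in the other exposed muscles, MIRLET7D at 5460 against 2405 to 2750, and MIRLET7G at 28840 against 21153 to 22257. Its summed let-7 value was 150030 against 95888 to 103471, and MIRLET7A took 30.9% of its let-7 reads against 24.6% to 25.6%.

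In the same group MIRLET7B took 16.3% of let-7 reads in animal 918, below 18.6% to 18.9% in the others. In control liver, MIRLET7A of animal 902 was at 13069 against 20331 to 21382, in the liver library with the fewest miRNA reads. In control muscle, MIRLET7F of 902 was at 15463 against 18460 to 19062, and MIRLET7I of 928 was at 9843 against 8204 to 8469.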

How the results depend on the processing

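Of the log2 fold changes of let-7 members under the alternatives, 677 kept their direction and side of the threshold or changed sign without passing in either, 15 no longer passed, 9 newly passed and 27 changed sign. The cause was not tested. With 1 size factor over the 4 tables, BPA liver calls went from 0 to 7 let-7 rows and from 1 to 4 partners, with MIRLET7B at 1.25, MIRLET7G at 1.23, MIRLET7I at 1.41, MIR99A at 1.19 and MIR10B at 1.23. The interaction went from 0 to 7 let-7 rows and 4 partners, with MIRLET7B at -1.69, MIRLET7C at -1.95, MIRLET7G at -1.83, MIRLET7I at -1.86 and MIR99A at -1.62. The tissue difference in BPA animals went from 6 to 2 let-7 rows, against 66.7% of all miRNAs (MIRLET7A -0.078, MIRLET7F -0.93, MIRLET7G -0.41, MIRLET7I -0.39 and MIR99A -0.81), and MIR99A in controls was at 0.81. As a share of all miRNA reads, muscle minus liver was -0.23 for MIRLET7A, -1.01 for MIRLET7F, -0.72 for MIRLET7G, -0.67 for MIRLET7I, -1.22 for MIR99A and -0.74 for MIR10A. In controls 3 let-7 rows passed on that scale, against 74.1% of all miRNAs in either direction. They were MIRLET7F at -0.92, MIRLET7G at -0.84 and MIRLET7I at -0.78, all lower in muscle, whereas 7 had passed as higher. MIRLET7A at -0.19, MIRLET7C at -0.011 and MIR10A at -0.45 also changed sign. MIRLET7B at 0.22 and MIRLET7D at 0.51 kept their sign but did not pass. In BPA animals MIRLET7A was at -0.26, MIRLET7F at -1.11, MIRLET7G at -0.59, MIRLET7I at -0.56, MIR99A at -0.99 and MIR10A at -1.04. On the deposited scale MIRLET7F was at -0.22 over all animals, -0.076 in controls (4 rows instead of 7 passed) and -0.36 in BPA animals, and MIR99A at -0.42 over all and -0.25 in BPA animals. With code range as a covariate 1 let-7 row and 2 partners passed in BPA liver.

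Leaving out any 1 library or animal changed no let-7 count beyond 1.5 times: 0 rows for BPA in either tissue and for the interaction, 7 for the tissue difference over all animals and in controls, and 6 in BPA animals. Without 1 library, partners called in BPA liver ran from 0 to 1, and without 1 animal in the interaction from 0 to 1. With animal as a replicate block the let-7 counts stayed 7, 7, 6 and 0 for the tissue difference over all, in controls, in BPA animals and for the interaction, and 28 of 28 member values kept their call. The largest counting error of a let-7 value was 6.12%.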
